A study of Mus musculus with 12 samples.

Results

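The ionotropic receptors for GABA (γ-aminobutyric acid) were examined in 12 MYCN-driven neuroendocrine tumors, 9 from the pancreas and 3 from the pituitary gland. Of the 18193 genes measured, the 7 genes described here encode receptor subunits, Gabra2, Gabra3, Gabra4, Gabra5, Gabrb1, Gabrb2 and Gabrg1, and they were read by 21 probe sets. The family was chosen by the measured difference of Gabrb1 and Gabra4 between the tumor sites, so the site differences of the 7 genes are given as a description without a test. All tumors arose in untreated LSL-MYCN;hGFAP-Cre mice of mixed genetic background, which carry a human MYCN transgene behind a removable stop cassette and a Cre recombinase driven by the human GFAP promoter. Neither age nor sex of the mice is given for these arrays. The labels of the pituitary tumors give brain as their tissue, and the study locates such tumors at the pituitary gland. Tumors are called by the numbers in their labels, with pituitary tumors 6, 7 and 8. Some mice of the study had tumors at both sites, and which arrays share a mouse is not known, so the spread between arrays need not be the spread between animals.

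A GABA-A receptor is a chloride channel built of 5 subunits around a central pore. Most receptors in the brain combine α and β subunits with a γ or δ subunit, GABA binds between α and β, and benzodiazepines bind between α and γ. In mature neurons the open channel mostly inhibits firing. In the pancreatic islet, GABA released by β cells reaches receptors of the neighbouring endocrine cells, and hormone cells of the anterior pituitary carry GABA receptors too.

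Subunit genes lie in clusters of the genome. By the RefSeq annotation of the mouse assembly GRCm38.p6, Gabrg1, Gabra2, Gabra4 and Gabrb1 lie together on chromosome 5 (chr5:70751047-72149572) over 1398.5 kb. Gabra4 (chr5:71569734-71658308, minus strand) and Gabrb1 (chr5:71657921-72149572, plus strand) point away from each other, and their annotated spans overlap by 388 bases at the start. Gabrg1 (chr5:70751047-70842617) and Gabra2 (chr5:70958392-71095849) lie on the minus strand. Gabra5 lies on chromosome 7 (chr7:57407669-57591016), Gabrb2 on chromosome 11 (chr11:42419515-42632591) and Gabra3 on the X chromosome (chrX:72432676-72656919).

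The 250 bases before an annotated start of the 4 genes on chromosome 5 are shown, since 3 of these genes were higher in every pituitary than in every pancreatic tumor, as were 5.41% of all genes, while Gabrg1 was not. For Gabrb1 the start that lies farther from Gabra4 was taken. Sequences run 5′ to 3′ on the strand of the gene, from RefSeq, GRCm38.p6, at chr5:71658309-71658558 (minus) for Gabra4, chr5:71699682-71699931 (plus) for Gabrb1, chr5:71095850-71096099 (minus) for Gabra2 and chr5:70842618-70842867 (minus) for Gabrg1. Capitals mark the GC box GGGCGG on either strand.
Gabra4: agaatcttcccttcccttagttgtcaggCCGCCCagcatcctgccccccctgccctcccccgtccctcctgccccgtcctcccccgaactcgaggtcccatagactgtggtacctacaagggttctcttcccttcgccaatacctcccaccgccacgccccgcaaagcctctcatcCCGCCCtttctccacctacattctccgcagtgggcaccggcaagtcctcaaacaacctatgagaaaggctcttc
Gabrb1: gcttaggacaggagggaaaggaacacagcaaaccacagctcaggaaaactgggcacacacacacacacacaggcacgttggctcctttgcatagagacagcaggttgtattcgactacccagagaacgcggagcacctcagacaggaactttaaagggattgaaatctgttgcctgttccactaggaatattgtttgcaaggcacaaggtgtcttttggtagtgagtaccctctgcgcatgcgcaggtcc
Gabra2: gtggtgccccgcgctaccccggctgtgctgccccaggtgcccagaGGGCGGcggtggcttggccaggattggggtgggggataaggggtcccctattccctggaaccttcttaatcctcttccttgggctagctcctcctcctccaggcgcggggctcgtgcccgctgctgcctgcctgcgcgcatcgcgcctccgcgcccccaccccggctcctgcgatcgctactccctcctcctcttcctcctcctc
Gabrg1: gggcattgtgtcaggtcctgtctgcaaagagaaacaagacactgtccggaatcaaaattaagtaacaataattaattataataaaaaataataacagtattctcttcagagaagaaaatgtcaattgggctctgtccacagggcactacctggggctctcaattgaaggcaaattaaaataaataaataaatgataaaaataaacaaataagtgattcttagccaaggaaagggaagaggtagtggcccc

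The GC box occurred at 2 positions before Gabra4, at 1 before Gabra2 and at 0 before the shown starts of Gabrb1 and Gabrg1. It occurred in 32.7% of 32851 such windows of all genes. The E-box CACGTG, the core sequence bound by MYC proteins with MAX, was searched on both strands and had no match in any of the 11 windows of the 7 subunit genes, and it occurred in 6.02% of all windows. The TATA box TATAAA, searched on both strands, occurred in 12.4% of all windows and had no match in these 4. CG dinucleotides numbered 12 before Gabra4, 6 before Gabrb1, 18 before Gabra2 and 1 before Gabrg1, where the median window held 6. Before the other start of Gabrb1, next to that of Gabra4, they numbered 18, with 64.4% G and C bases and no GC box. The window of Gabrg1 had 35.6% G and C bases and that of Gabra2 70.0%. These are descriptions of the letters in the windows, and no binding was measured.

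The arrays give a log2 signal for each probe set. Their medians ranged from 5.45 to 5.69, and a signal at or below the median of its own array stands here for background, since detection calls were not used here. Pancreatic tumors 10, 11 and 12 had lower array means (5.97 to 5.98) than the remaining 9 arrays (6.06 to 6.10). The site labels were checked with marker genes. Over 6 genes of the endocrine pancreas the mean level lay between 9.22 and 12.75 in pancreatic tumors and between 6.37 and 6.74 in pituitary tumors. Over 8 genes of the anterior pituitary it lay between 5.19 and 5.83, and between 9.76 and 11.63. Mean levels of brain cell markers were higher in pituitary tumors 6 and 8 than in pituitary tumor 7. Over 5 oligodendrocyte genes the mean level was 9.24 and 8.56 in tumors 6 and 8, 4.94 in pituitary tumor 7 and 4.79 to 5.12 in the pancreatic tumors. Some brain markers were above background in pituitary tumor 7 too. An example is the neuronal gene Slc17a6 (8.53), which stayed below background in all pancreatic tumors. Of the 8 neuronal genes, 5 lay above background in tumor 7, against 3 to 6 in the pancreatic tumors. Slc17a7 (4.61), Nefl (4.66) and Stmn2 (4.90) were at background in tumor 7. The mean level of the neuronal genes in tumor 7, 7.57, lay within the range of the pancreatic tumors, 5.55 to 8.30.

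The β1 subunit separated the sites most evenly. Gabrb1 encodes the β1 subunit, 1 of the chains that form the GABA binding site. Its log2 signal was 10.41, 10.52 and 10.37 in pituitary tumors 6, 7 and 8. In the pancreatic tumors it was 4.18 at the lowest, 4.59 at the median and 4.83 at the highest. All pancreatic tumors lay below their array median and all pituitary tumors far above it, so the groups did not overlap. The difference, pituitary minus pancreatic, was 5.90 with a standard error of 0.16, from 10.43 ± 0.08 (SD, n = 3) and 4.53 ± 0.24 (SD, n = 9). Since the pancreatic signals lie at background, the size of this difference can be a lower bound. Pituitary tumor 7, with the mean of the oligodendrocyte genes at background, had a Gabrb1 signal within 0.15 of both others. In this tumor 1 of the 5 oligodendrocyte genes and 5 of 8 neuronal genes lay above the array median. The counts were 5 and 8 in pituitary tumor 6, and 1 to 2 and 3 to 6 in the pancreatic tumors. The oligodendrocyte gene above the median in tumor 7 was Mbp, which was above it in all 9 pancreatic tumors too. Of the 4 probe sets of Gabrb1, 3 had no overlap between the groups, with differences of 5.90, 4.88 and 3.44. The remaining probe set, 1443834_at, stayed below background in all 12 tumors.

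The α4 subunit was high in the same tumors, and unlike Gabrb1 it varied within the pancreas. Gabra4 encodes the α4 subunit, known from receptors outside the synapse. Its log2 signal was 10.15 in pituitary tumor 6, 10.76 in tumor 7 and 9.02 in tumor 8. The highest pituitary value was thus that of tumor 7. In the pancreatic tumors the signal ranged from 3.38 to 7.19 with a median of 4.39. It lay above the array median in tumor 9 (7.19), tumor 4 (6.52), tumor 5 (6.27) and, barely, tumor 3 (5.61), and at background in the other 5. The groups did not overlap, with a gap of 1.83 between the lowest pituitary and the highest pancreatic tumor. The difference was 4.93 with a standard error of 0.79, from 9.98 ± 0.88 (SD, n = 3) and 5.04 ± 1.37 (SD, n = 9). The other probe set, 1429330_at, gave 2.72 with a standard error of 0.53 and also no overlap, with a gap of 0.26. It was above background in pancreatic tumors 4, 5, 9 and 10, so the probe sets differed on tumors 3 and 10.

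Gabra2 and Gabrb2 also had no overlap between the sites, at different levels within the pituitary group. Gabra2 encodes the α2 subunit. Its log2 signal was 9.70, 7.47 and 7.73 in pituitary tumors 6, 7 and 8, and 2.86, 3.01 and 3.43 at the lowest, median and highest of the pancreatic tumors. All 9 pancreatic tumors were at background. The difference was 5.23 with a standard error of 0.36. Of its 5 probe sets, 3 had no overlap, and these gave differences of 1.68 to 5.23, while 1420299_at and 1449807_x_at stayed below the array median in all tumors.

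Gabrb2 encodes the β2 subunit, part of the most common receptor type of the brain. Its log2 signal at the representing probe set, 1428205_x_at, was 8.35, 6.71 and 8.62 in pituitary tumors 6, 7 and 8. In the pancreatic tumors it was 4.89, 5.18 and 5.59 at the lowest, median and highest, below the array median in all 9. The difference was 2.72 with a standard error of 0.32. The suffix of this probe set marks possible cross-hybridization, and 1429685_at gave 10.53, 6.89 and 10.96 in the pituitary tumors and a difference of 6.11. Of 5 probe sets, 4 had no overlap. At each of these 4, pituitary tumor 7 was the lowest of its group and lay above every pancreatic tumor.

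Gabra5, Gabra3 and Gabrg1 overlapped between the sites. Gabra5, which encodes the α5 subunit known from the hippocampus, had 7.60, 3.74 and 4.92 in pituitary tumors 6, 7 and 8 and 3.08 to 4.71 in the pancreatic tumors (median 3.31). Only pituitary tumor 6 lay above its array median. The difference of 1.97 (standard error 0.61) thus rested on that tumor, and it was 0.88 without it.

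Gabra3 encodes the α3 subunit, and it was the only 1 of the 7 genes with a higher mean in the pancreatic tumors, 6.94 ± 1.80 (SD, n = 9) against 6.63 ± 2.13 (SD, n = 3). The difference was -0.32 with a standard error of 1.14, smaller than the spread within either group, and its sign turned without pancreatic tumor 1 (0.071) or pituitary tumor 7 (0.79). Pancreatic tumor 1 had the highest signal of all tumors (10.04), pancreatic tumor 11 had 4.02, and the median of the pancreatic tumors was 7.47. The signal lay above background in 7 of the 9 pancreatic tumors, the most of the 7 genes. In pituitary tumors 6, 7 and 8 it was 8.66, 4.41 and 6.80. The other Gabra3 probe set stayed at 4.38 to 6.23 over all tumors and was above background in 2 of them.

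Gabrg1 encodes the γ1 subunit, found in glia and in parts of the brain. It had 7.59, 4.02 and 7.74 in pituitary tumors 6, 7 and 8, and 3.58, 4.81 and 7.43 at the lowest, median and highest of the pancreatic tumors. Pancreatic tumors 1 (7.43) and 9 (6.28) and pituitary tumors 6 and 8 lay above background. The difference was 1.42 with a standard error of 0.87.

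**Figure D1:**
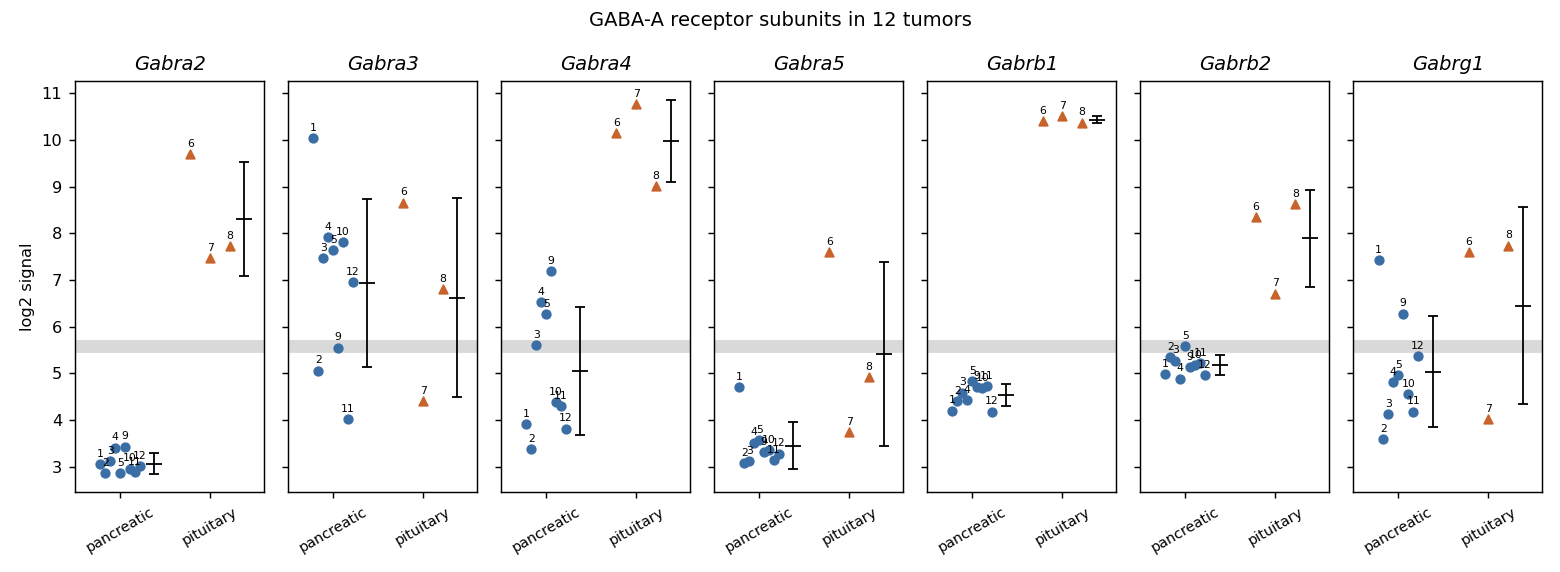
Log2 signal of the representing probe set of 7 GABA-A receptor subunit genes in each tumor, 9 pancreatic (circles) and 3 pituitary (triangles), with 1 numbered point per tumor, the mean and SD beside each group, and the range of array medians in grey. Gabrb1 lies at 10.37 to 10.52 in the pituitary tumors and at 4.83 or below in the pancreatic tumors, while Gabra3, Gabra5 and Gabrg1 overlap.

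Over the representing probe sets, 4 of the 7 genes were higher in every pituitary than in every pancreatic tumor; 5.41% of all 18193 genes were too. The median difference of the 7 genes was 2.72, and that of all genes was -0.03. Nothing is read from these counts, since the difference between the sites chose the family. Over all 21 probe sets, 12 had no overlap, and 4 did not exceed the array median in any tumor. The shares among all probe sets were not computed, so nothing is read from these counts either.

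**Figure D2:**
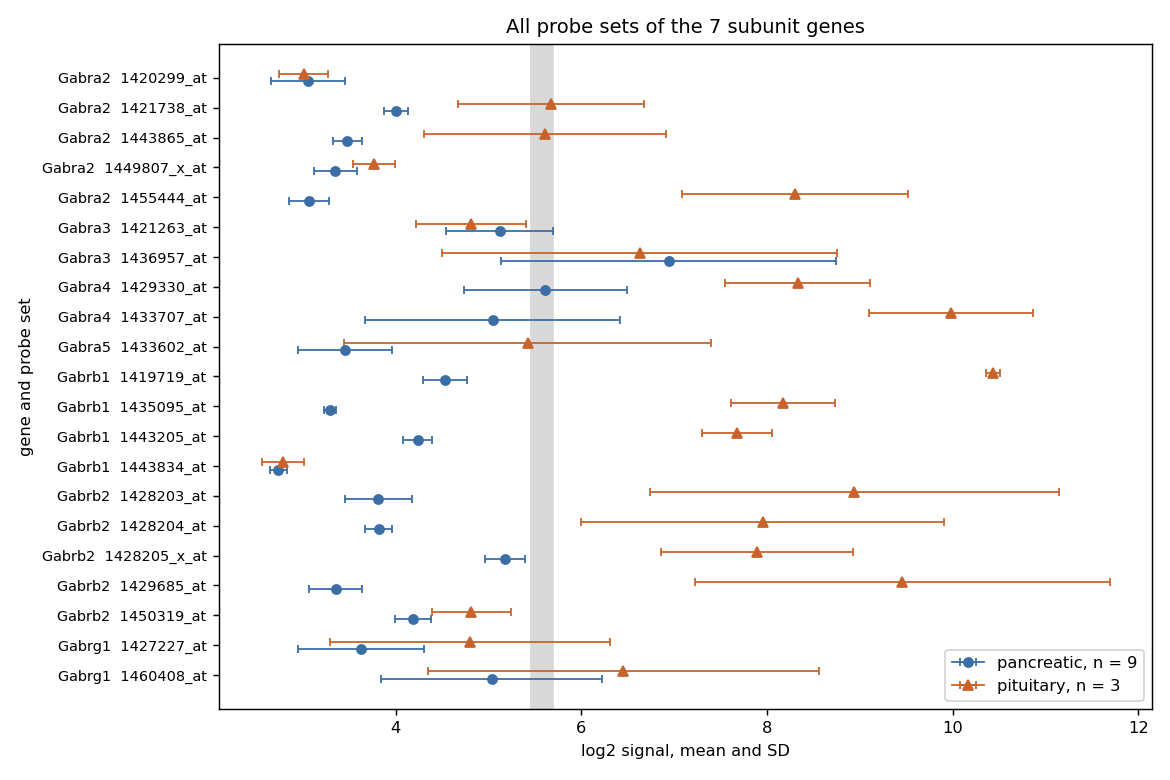
Mean and SD of the log2 signal of all 21 probe sets of the subunit genes at the 2 sites, pancreas (circles, n = 9) and pituitary (triangles, n = 3), with the range of array medians in grey. Of the probe sets of Gabrb1, Gabra4 and Gabrb2, 3 of 4, 2 of 2 and 4 of 5 have no overlap between the sites.

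The pituitary tumors were not alike, and the 7 genes fell into different orders among them. Gabrb1 differed by 0.13 between tumor 7 and the mean of tumors 6 and 8, and Gabra4 was higher in tumor 7 by 1.18. The other 5 genes were lower in tumor 7 than in both other tumors. The distance of tumor 7 from the mean of tumors 6 and 8 was -1.24 for Gabra2, -1.78 for Gabrb2, -2.52 for Gabra5, -3.32 for Gabra3 and -3.65 for Gabrg1. Gabra3, Gabra5 and Gabrg1 were at background in tumor 7. Mean levels of brain cell markers were also lowest in tumor 7. The neuronal and astroglial means differed little between tumors 6 and 8, as did Gabrb2 (8.35 and 8.62) and Gabrg1 (7.59 and 7.74). Gabra2 (9.70 and 7.73), Gabra3 (8.66 and 6.80) and Gabra5 (7.60 and 4.92) were higher in tumor 6 than in tumor 8. The mean level of 8 neuronal genes was 10.87, 7.57 and 10.67 in tumors 6, 7 and 8, and it was 5.55 to 8.30 in the pancreatic tumors. That of 7 astroglial genes was 11.18, 7.32 and 11.16, against 5.33 to 7.65. All 8 neuronal and all 7 astroglial genes lay above background in tumors 6 and 8, and 5 and 5 of them in tumor 7. In the pancreatic tumors 3 to 6 of the neuronal and 3 to 6 of the astroglial genes did. The part of these cells in the levels of the subunit genes was not tested. Fewer cells of a type and less RNA per cell cannot be told apart in such samples. Without tumors 6 and 8, the difference between tumor 7 and the pancreatic tumors was 5.99 for Gabrb1, 5.72 for Gabra4, 4.41 for Gabra2, 1.53 for Gabrb2, 0.29 for Gabra5, -1.01 for Gabrg1 and -2.53 for Gabra3.

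**Figure D3:**
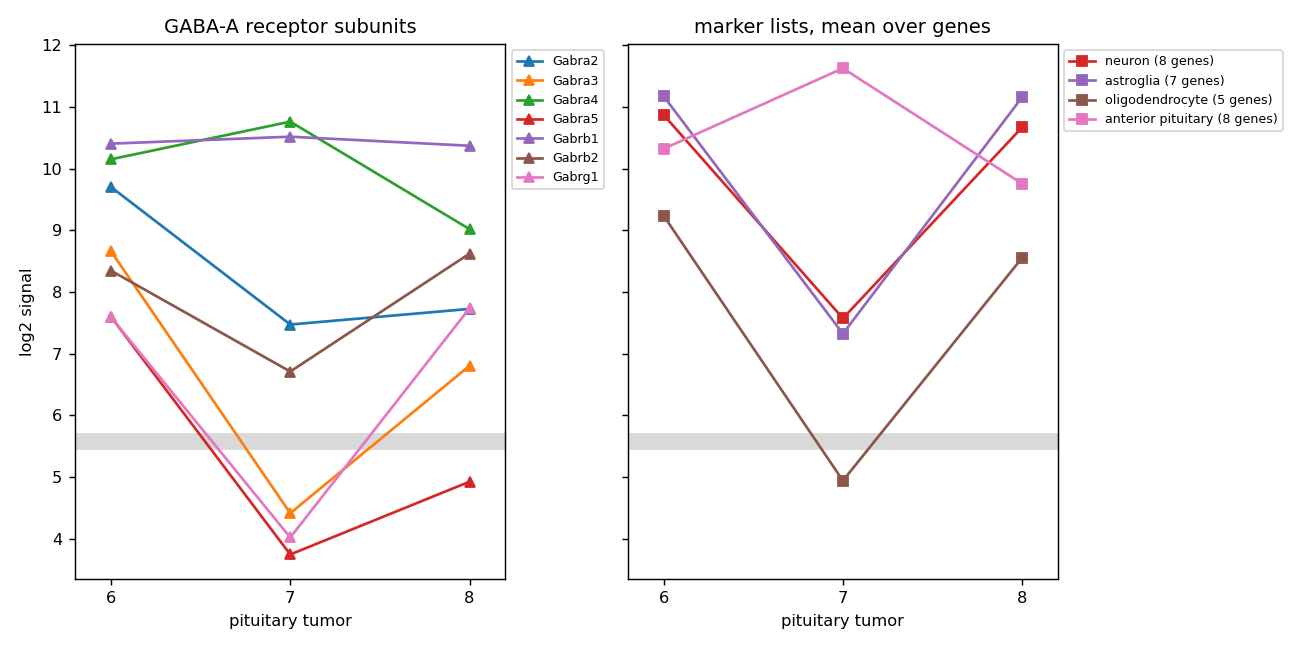
Log2 signal of the 7 subunit genes (left, triangles) and mean log2 signal of 4 marker lists (right, squares) in pituitary tumors 6, 7 and 8, with the range of array medians in grey. Gabrb1 and Gabra4 stay at 9.02 or above in all 3 tumors, while Gabra3, Gabra5, Gabrg1 and the mean of the oligodendrocyte list lie at background in tumor 7.

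Other genes near the cluster did not share the difference in size. Within 1000 kb on either side and between the subunit genes, 11 other protein-coding genes were measured. They were chosen by position after the values of the subunit genes were seen. Except for Cox7b2 they all lay beyond Gabrb1, and none was measured beyond Gabrg1 on the other side. The differences of the 11 genes ranged from -3.12 to 1.33. Cox7b2, which lies between Gabra2 and Gabra4, was at the upper end, with a mean of 4.68 in pituitary and 3.34 in pancreatic tumors. It had 4.07, 3.67 and 6.28 in pituitary tumors 6, 7 and 8 and was above background only in tumor 8. The groups did not overlap, but the gap was 0.013, between signals at background. Nipal1 was at the lower end and was higher in the pancreatic tumors.

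**Figure D4:**
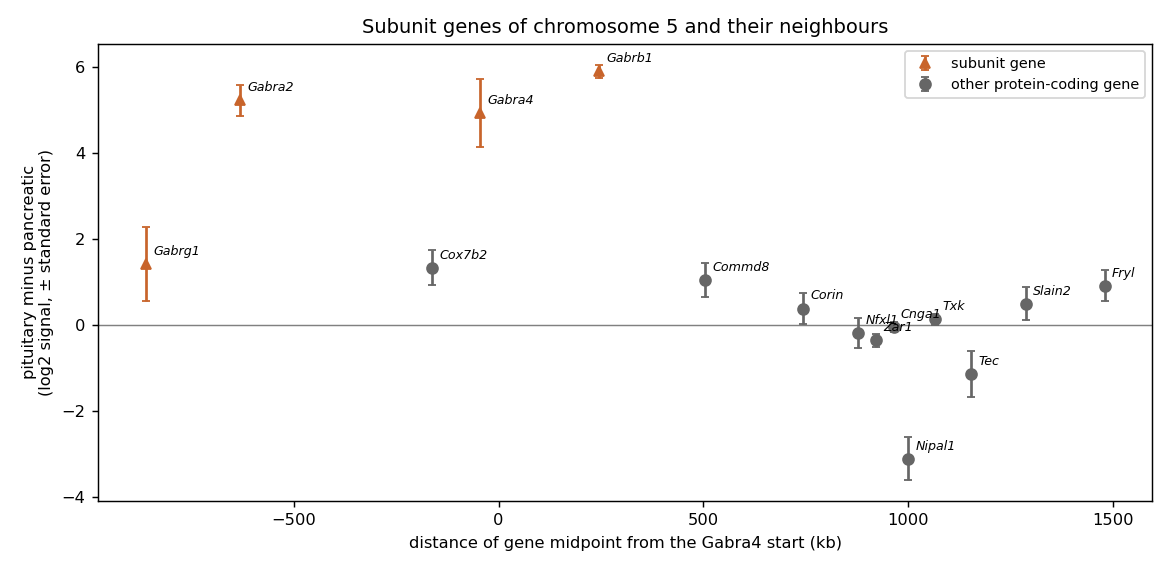
Difference in log2 signal between pituitary (n = 3) and pancreatic tumors (n = 9), with its standard error, against the distance of the middle of the gene from the start of Gabra4, for 4 subunit genes (triangles) and 11 other protein-coding genes (circles). Gabra2, Gabra4 and Gabrb1 lie at 4.93 to 5.90, and Gabrg1 lies at 1.42.

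The spread among the 9 pancreatic tumors played no part in the choice of the genes. Correlations were computed for all 21 pairs of the 7 genes over these tumors. Gabra3 and Gabra5 had the lowest p, with Pearson's r of 0.77 (exact permutation test of pairings, two-sided, p = 0.00533, adjusted p = 0.112) and Spearman's rho of 0.80 (exact p = 0.0138, adjusted p = 0.268). Without pancreatic tumors 1 and 11, the farthest from the median of Gabra3, r was 0.61, and without tumors 10, 11 and 12, whose arrays have a lower mean, it was 0.85 (n = 6). Gabra5 lay at background in all 9 tumors, so this relation rests in part on signals at background. Gabra5 and Gabrg1 had the largest r, 0.82 (exact permutation p = 0.0126, adjusted p = 0.133), with rho of 0.75 (exact p = 0.0255, adjusted p = 0.268), and r was 0.54 without tumors 1 and 5. Gabra4 and Gabrb1, which share their start region, had r of 0.54 (exact permutation p = 0.133, adjusted p = 0.399) and rho of 0.60 (exact p = 0.0968, adjusted p = 0.465), and r was 0.69 without tumors 4 and 9. Gabrb1 was at background in these 9 tumors too. Gabra3 and Gabrg1, both highest in tumor 1, had r of 0.57 (exact permutation p = 0.113, adjusted p = 0.394) and rho of 0.45 (exact p = 0.23, adjusted p = 0.603), and r was -0.03 without tumors 1 and 11, so it rests on those tumors. Of the 21 pairs, 4 had an unadjusted p under 0.05 for Pearson's r and 2 for Spearman's rho, and 0 passed after adjustment in either.

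The genes whose pattern over the 12 tumors was most like that of Gabrb1 separated the sites too, which likeness to Gabrb1 nearly ensures. Pearson's r with Gabrb1 over the 12 tumors was 0.997 for Gh, the growth hormone gene of pituitary somatotropes, 0.996 for Dscaml1, 0.994 for Car10 and 0.991 for Ugt8a and Kcnd3. Over the 9 pancreatic tumors alone r was 0.24 to 0.38 for these 5 genes. Gh had a signal of 14.65 to 14.87 in the pituitary and 5.64 to 6.27 in the pancreatic tumors. For Gabra4 the nearest genes were Rorb, a nuclear receptor gene (0.972), Csgalnact1, for an enzyme of chondroitin sulfate synthesis (0.962), Hspb6, for a small heat shock protein (0.959), Thy1, for a cell surface protein of neurons and T cells (0.953), and Spred1, for an inhibitor of RAS signalling (0.945). For these 5 genes r with Gabra4 was 0.80 to 0.91 over the pancreatic tumors alone (n = 9). The pancreatic tumors are among the 12 by which the genes were picked, so this is no separate result. Gabra4 was above background in only 4 of the 9. Among the subunit genes, r with Gabrb1 over the 12 tumors was 0.97 for Gabra2, 0.93 for Gabrb2 and 0.89 for Gabra4. These values describe likeness and carry no test, and the distance between the sites enters each value over 12 tumors.

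Other genes of GABA signalling mostly did not pass the test between the sites. Of 39 measured genes outside the 7, which encode other subunits, proteins of receptor assembly and anchoring, the GABA-B receptor and enzymes and transporters of GABA and chloride, 4 were higher in pituitary and 0 in pancreatic tumors (limma across 45037 probe sets, adjusted p below 0.05). Over all 18193 genes, 4.50% were higher in pituitary and 1.61% in pancreatic tumors by this rule. At an unadjusted p under 0.05 the counts were 12 and 5, where 14.4% and 9.36% of all genes passed, and with the variance not moderated 3 and 0. The median difference of the 39 genes was 0.30. When array weights were used, 12 genes were higher in pituitary and 3 in pancreatic tumors, where 9.06% and 5.21% of all genes were.

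Slc6a11, which encodes the GABA transporter GAT-3, was higher in all 3 pituitary tumors. Its log2 signal was 9.80, 12.11 and 10.11 in tumors 6, 7 and 8 and 4.62 to 5.91 in the pancreatic tumors (median 5.55). The highest value was that of tumor 7, as for Gabra4. Slc6a11 was thus higher by 5.23 with a standard error of 0.43 (limma, adjusted p = 2.53e-05). The call held when any 1 tumor was left out. A second probe set did not pass (difference 0.23, adjusted p = 0.636).

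Gad1 and Gad2 encode enzymes that make GABA. Gad2 did not pass (limma, adjusted p = 0.121), with 8.73, 5.64 and 8.51 in pituitary tumors 6, 7 and 8. In the pancreatic tumors Gad2 had 4.08 to 7.17 and was above background in 3 of them. Gad1 had 11.32, 3.05 and 12.52 in pituitary tumors 6, 7 and 8 and 2.92 to 3.41 in the pancreatic tumors, so tumor 7 lay among the pancreatic tumors. Gad1 was higher by 5.80 with a standard error of 1.40 (limma, adjusted p = 0.0367). Leaving out 1 tumor ended the call in 10 of 12 cases, all but pancreatic tumor 2 and pituitary tumor 7 (adjusted p 0.0506 to 0.218 in the 10), and the difference was 8.76 without pituitary tumor 7. It turned to -0.11 without tumors 6 and 8. A second probe set gave 2.40 (adjusted p = 0.0451). Mean levels of brain cell markers were also higher in tumors 6 and 8 than in tumor 7.

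Trak2 and Plcl1, for proteins that bind GABA-A receptor subunits or partners during transport and recycling, were higher by 1.64 (standard error 0.34, adjusted p = 0.0178 from limma) and 1.58 (0.26, adjusted p = 0.00424). Trak2 had 9.43, 8.06 and 8.95 in pituitary tumors 6, 7 and 8 and 6.06 to 7.63 in the pancreatic tumors. The Trak2 call was lost without pituitary tumor 6 (difference 1.33, adjusted p = 0.128) or 8 (1.57, 0.0948) and without pancreatic tumors 10, 11 and 12 (1.56, 0.109). For both genes another probe set did not pass (adjusted p = 0.545 and 0.862). Plcl1 was at background in all 9 pancreatic tumors and in pituitary tumor 7 (4.72), and had 6.09 and 5.68 in tumors 6 and 8. Its call held when any 1 tumor was left out.

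By group, 0 of 8 other subunit genes, 2 of 16 assembly and anchoring genes, 0 of 3 GABA-B receptor genes, 2 of 8 genes of GABA synthesis, transport and breakdown and 0 of 4 genes of the chloride gradient and of the ligand Dbi passed, all toward the pituitary tumors. Of the 8 other subunit genes, 5 did not exceed background in any tumor. Of the 35 genes that did not pass, Gabbr1 and Gabarapl2 each had another probe set that was higher in the pituitary tumors (differences 2.86 and 1.26, adjusted p = 0.041 and 0.0238).

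**Figure D5:**
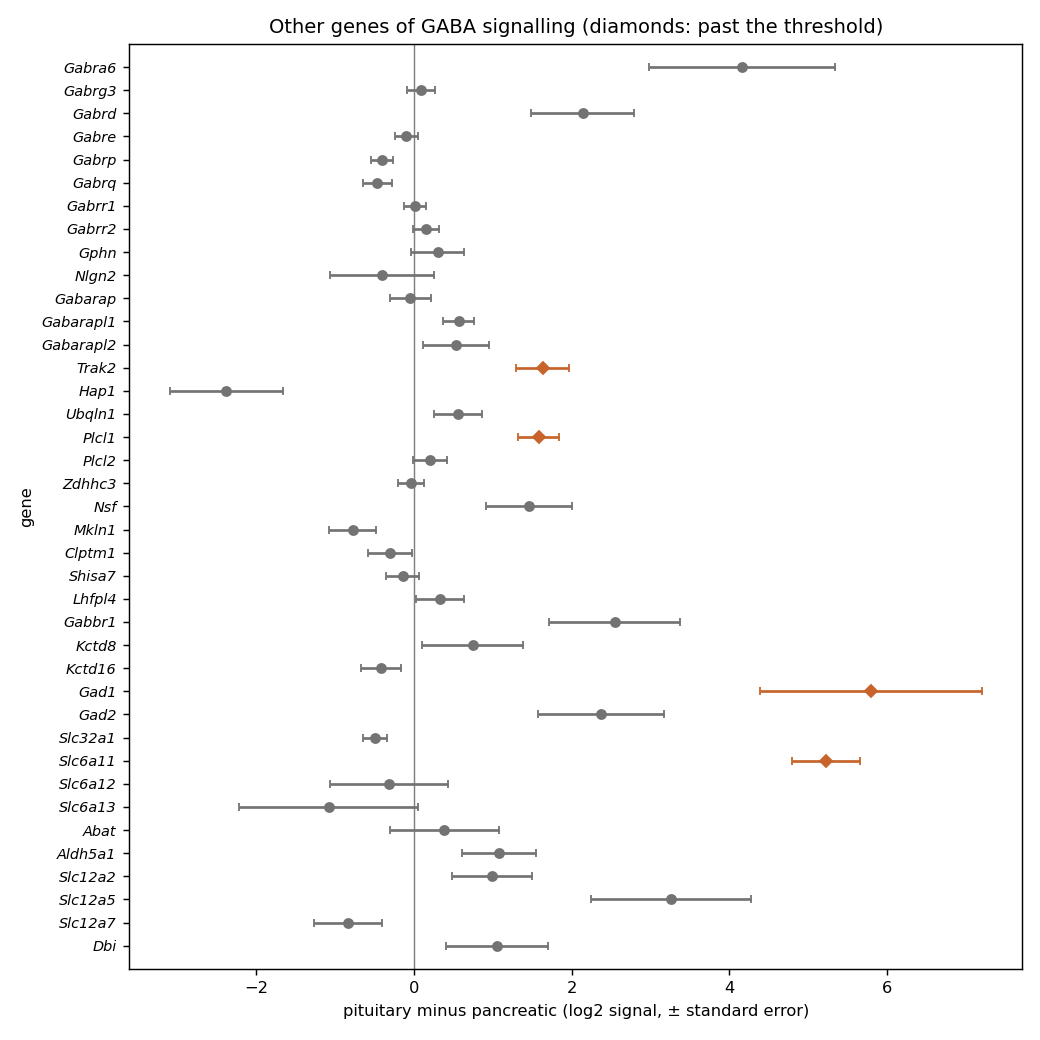
Difference in log2 signal between pituitary (n = 3) and pancreatic tumors (n = 9), with its standard error, for 39 other genes of GABA signalling, 1 probe set per gene. Diamonds mark the 4 genes with an adjusted p below 0.05, Trak2, Plcl1, Gad1 and Slc6a11, which all lie on the pituitary side.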

How the data were processed

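RNA of 12 tumors was hybridized to Affymetrix mouse arrays, 1 array per tumor. What the authors deposited is 1 log2 signal for each probe set and tumor, on arrays already brought to a common scale. The study used Partek Genomics Suite, with RMA for a further analysis, and which of them made these values is not stated. They were used unchanged. Of 45101 probe sets, 64 controls were left out. By GEO's annotation of the platform, 34945 tested probe sets name 1 gene symbol, 932 name several and 9160 none, and all 7 subunit genes matched RefSeq (GRCm38.p6) by Entrez identifier. A gene is represented by its probe set with 1 symbol and the highest mean of the group means, and several probe sets of a gene are given where they differ.

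Sites were compared over 45037 probe sets with limma 3.58.1 (R 4.3.3; functions lmFit and eBayes), adjusted after Benjamini-Hochberg (threshold 0.05), and tested on simulated data. Correlations over 9 tumors used all 362880 pairings. The study's design text names an ANOVA, for which the test with variance not moderated stands. Python 3.11.15, numpy 2.4.6, pandas 2.3.3 and scipy 1.17.1 were used. The members and lists were chosen with earlier results of these data known. The text names the 7 genes, every other GABA gene past the threshold and the 5 genes most like Gabrb1 and Gabra4. Precision is limited by the number of arrays. Alternatives were other normalizations, variance models, filters and left-out tumors.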

Additional observations from a re-analysis of the deposited data

Results flagged for a closer look

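Among the 9 pancreatic tumors, each of the 21 probe sets was examined for a single tumor apart from the others with Dixon's test at the 5% level, and 3 were marked, where chance gives about 1 in 20 groups. Gabra5 had a signal of 4.71 in pancreatic tumor 1, where the next tumor had 3.57. This tumor also had the highest Gabra3 and Gabrg1 of the pancreatic tumors. The Gabra2 probe set 1420299_at had 3.99 in pancreatic tumor 12 (next tumor 3.30), and 1449807_x_at had 2.84 in pancreatic tumor 2 (next tumor 3.26). All 3 values lie below the array median, and both Gabra2 probe sets do so in every tumor.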

How the results depend on the processing

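Differences are pituitary minus pancreatic. Of 119 recomputed differences of the 7 genes, 108 moved by less than the SD within groups, 11 by more, and 3 changed sign. When all probe sets of a gene were averaged, the difference was 1.88 for Gabra2, 3.57 for Gabrb1 and 3.74 for Gabrb2. Without pituitary tumors 6 and 8, which leaves 1 pituitary tumor assumed to vary like the pancreatic ones, it was 4.41 for Gabra2, -2.53 for Gabra3, 0.29 for Gabra5, 1.53 for Gabrb2 and -1.01 for Gabrg1. With 1 tumor left out it ranged from 4.53 to 5.65 for Gabra2, -1.33 to 0.79 for Gabra3, 4.54 to 5.41 for Gabra4, 0.88 to 2.81 for Gabra5, 5.86 to 5.94 for Gabrb1, 2.35 to 3.31 for Gabrb2 and 0.77 to 2.63 for Gabrg1. The count of other GABA genes higher in pituitary tumors, 4, became 12 with array weights, 2 among probe sets above the median, 2 without pancreatic tumors 10, 11 and 12, 1 without pituitary tumors 6 and 8, and 2 to 8 with 1 tumor left out, with 2 without pituitary tumor 6 or 8 and 8 without tumor 7. The count higher in pancreatic tumors, 0, became 3 with array weights and 0 to 1 with 1 tumor left out, with Hap1 without pancreatic tumor 2. The filter on probe sets removes genes from the test, and the other causes were not tested. Apart from array weights, the shares of all genes in these settings were not computed. Nothing particular to GABA genes is therefore read from the changed counts. Quantile normalization and median centring changed none of these counts. No paired analysis was possible because which arrays share a mouse is not known. Signals at background limit the size of the differences.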

Other observations

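Gabra6 and Gabrd, whose subunits are best known from granule cells of the cerebellum, were singled out after their values were seen. Gabra6 had a log2 signal of 7.89 in pituitary tumor 6, 13.00 in tumor 8 and 4.38 in tumor 7, and 4.01 to 4.37 in the pancreatic tumors. Gabrd had 6.71, 8.62 and 3.97 in the same order of pituitary tumors, and 3.91 to 4.60 in the pancreatic tumors. Neither passed the comparison of the sites (limma, adjusted p = 0.0678 and 0.0883). Both had their highest signal in tumor 8, as did Gad1 (12.52, and 11.32 in tumor 6). Slc32a1, which encodes the vesicular transporter of GABA, had 7.60, 10.00 and 3.78 at probe set 1422756_at in tumors 6, 8 and 7 (adjusted p = 0.0554), while the probe set that represents it had 5.81 to 6.05 in these tumors.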
